A study of Mus musculus with 6 samples.

Results

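The genes described here encode the extracellular matrix: 46 symbols of collagens, laminins, matrix glycoproteins and the enzymes that mature them, taken by name and not by a threshold on measured values. The list was nevertheless chosen with earlier results of these data known. Of the 46 symbols, 44 were among the 15528 gene symbols with counts, and Lama4 and Fbln5 were not. The mRNA libraries were made from mouse cells that carry the label lymphatic endothelial cells, that is, the lining of lymph vessels. The 2 groups were 3 control libraries and 3 libraries of cells treated with red blood cells (RBC), all at 24 h, and no strain, passage, dose or red cell source is given in the labels. The series concerns the crosstalk of brain and cervical lymph nodes after bleeding into the subarachnoid space, so the comparison asks how RNA levels of these cells differ in the presence of red blood cells.

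Most matrix sits in layered assemblies. Fibrillar collagens are triple helices that bundle into tension-bearing fibres. The basement membrane is a thin sheet beneath endothelium, made of a laminin network and a type IV collagen network joined by nidogens and by the heparan sulfate proteoglycan perlecan. Matricellular proteins such as thrombospondins, SPARC and the CCN family bind to this scaffold and to cell receptors and signal rather than bear load. Initial lymphatic capillaries are known for a sparse, discontinuous basement membrane and for elastic anchoring filaments.

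Total counts lay between 17263359 and 18381419. No label says that replicates came from separate cultures, and a p-value here reflects library-to-library spread that may be technical. Control replicate 2 stood apart, its counts differing from those of the other controls by a chi-square of 28.2 and 26.8 per gene. The other controls differed from each other by 1.99 and the treated libraries among themselves by 1.73 to 2.13. Several defining endothelial markers were scarce. Over the 3 control libraries Cdh5 had 7 counts, Kdr 0 and Pdpn 6, while Pecam1 had 802, Eng 5303, Nr2f2 8630 and Nrp2 14498. Krt8, Krt18 and Msln, genes of simple and mesothelial epithelia, had 23988, 2405 and 9997. Other epithelial and mesothelial markers were scarce, with 35 counts of Cdh1, 2 of Krt19 and 0 of Krt5 and Wt1. The lymphatic genes Prox1 and Lyve1 were looked for and were not among the gene symbols with counts. Whether they had no reads or no entry in the annotation cannot be told. The identity of the cells is taken from the label. In bulk RNA, fewer cells of a type and less RNA per cell cannot be told apart.

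The upstream sequences of 3 members are shown because these genes represent the patterns described further on: Prelp was the only member called with 6 libraries, Hspg2 was higher and Ccn1 lower once control replicate 2 was left out. They are from RefSeq windows on build GRCm38.p6, on the strand of the gene, and are cut to a stretch before the start that is free of GENCODE exons. Prelp is at chr1:133921415-133921651 on the minus strand, Hspg2 at chr4:137468553-137468768 on the plus strand and Ccn1 at chr3:145649986-145650235 on the minus strand. Capitals mark matches on either strand to the GC box GGGCGG, the TATA box TATAAA, the CCAAT box CCAAT and the TEAD site GGAATG.
Prelp: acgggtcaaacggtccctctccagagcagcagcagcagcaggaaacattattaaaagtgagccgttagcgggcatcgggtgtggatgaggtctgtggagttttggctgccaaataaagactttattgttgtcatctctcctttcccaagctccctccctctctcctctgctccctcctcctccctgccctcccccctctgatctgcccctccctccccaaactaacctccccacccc
Hspg2: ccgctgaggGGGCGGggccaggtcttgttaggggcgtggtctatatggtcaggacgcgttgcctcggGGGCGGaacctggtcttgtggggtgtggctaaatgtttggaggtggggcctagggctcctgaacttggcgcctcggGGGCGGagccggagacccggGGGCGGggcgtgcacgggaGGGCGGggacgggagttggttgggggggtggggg
Ccn1: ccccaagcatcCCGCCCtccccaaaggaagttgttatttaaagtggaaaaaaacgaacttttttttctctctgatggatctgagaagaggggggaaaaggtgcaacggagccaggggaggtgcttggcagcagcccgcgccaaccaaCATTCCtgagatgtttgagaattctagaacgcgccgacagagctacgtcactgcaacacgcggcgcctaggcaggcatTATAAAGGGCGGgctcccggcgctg
The Hspg2 stretch ends 35 bases before the start, is 70.8% G and C and holds 5 GC boxes and no TATA box. The full 250 bases before the Hspg2 start hold no TATA box either. The Ccn1 stretch holds 1 TATA box followed directly by a GC box, a further GC box on the other strand and 1 TEAD match, the motif of the partners through which YAP and TAZ are known to act on Ccn1. The Prelp stretch ends 14 bases before the start and holds none of the 4 motifs. The 250 bases before the Prelp start do hold a CCAAT box, which the stretch shown does not include. A window was at hand for 32 of the 44 members. In the 250 bases before the start, the GC box was present in 62.5% of these members, 65.5% of the 9024 tested genes with a window and 32.7% of all 32851 windows. The TATA box was present in 18.8%, 7.46% and 12.4%, the CCAAT box in 31.2%, 41.5% and 33.8%, and the TEAD site in 15.6%, 12.4% and 12.6%. These matches are a description of letters in a window.

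Members of the same class of matrix gene differed widely in level. Levels between genes are given in FPKM, which divides counts by gene length. In the controls Ccn1 stood highest with 373 ± 24.5 FPKM (SD, n = 3), before Sparc with 323 ± 11.5, Thbs1 with 168 ± 24.9, Fn1 with 125 ± 35.2 and Lamc1 with 114 ± 20.3. In each control Ccn1 and Sparc lay above the genes that follow, whereas the range of Fn1 overlapped those of Thbs1 and Lamc1. By contrast 10 listed members, Col1a1, Col3a1, Col4a5, Nid1, Nid2, Thbs2, Tnc, Efemp2, Ltbp3 and Bgn, had under 30 counts summed over each group and were too low to be tested. The remaining 34 were tested. The plot of levels shows this split inside most classes of matrix gene.

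**Figure D1:**
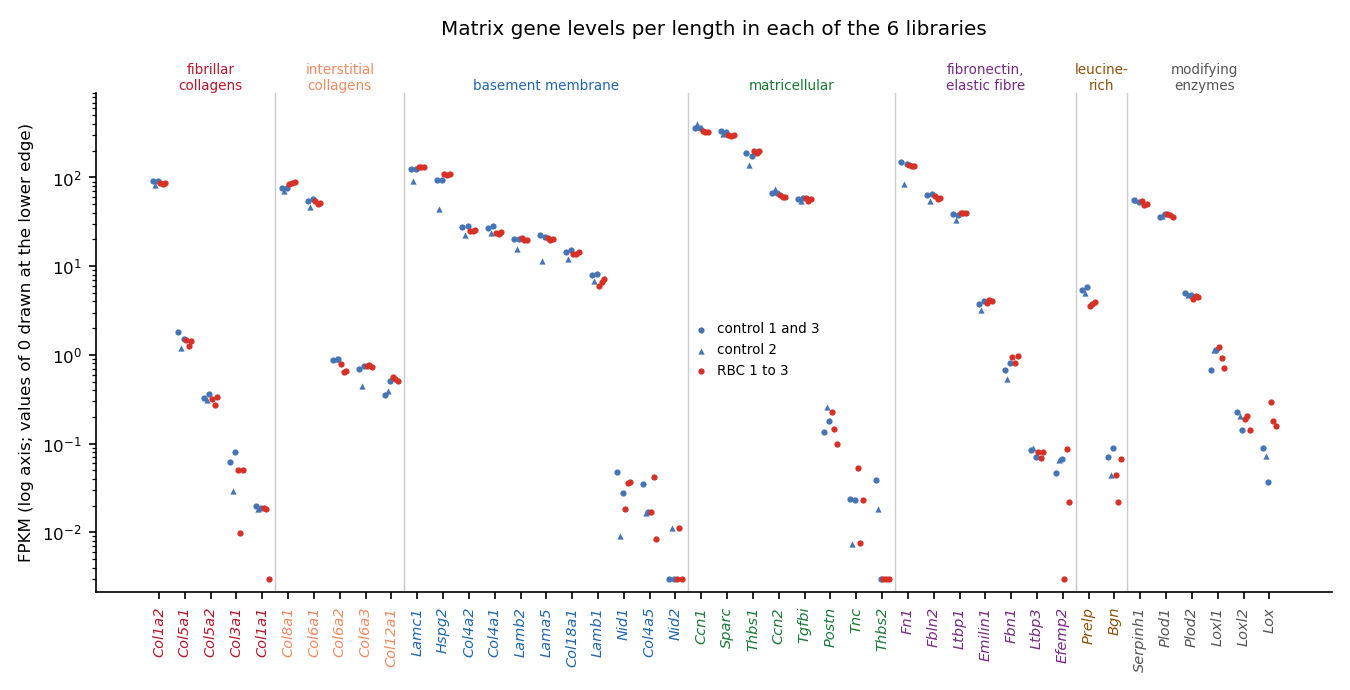
FPKM of the 44 listed members in each library, on a log axis, grouped by role and ordered by mean level; circles in blue are control replicates 1 and 3, triangles control replicate 2, circles in red the treated libraries. Within most roles a few genes lie above 10 FPKM and others below 0.1, and control replicate 2 lies under the other controls for Hspg2, Lama5 and Fn1.

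Chains that assemble together were present at very unequal levels in some cases. Type I collagen is normally built from chains of both Col1a1 and Col1a2, yet Col1a2 had 24805 counts over the controls and 24357 over the treated libraries, against 6 and 4 for Col1a1. Col6a1 had 52.5 ± 5.67 FPKM in the controls, whereas Col6a2 and Col6a3, the usual partners of its chain, had 0.892 ± 0.022 and 0.627 ± 0.163. Among laminin chains the gamma chain gene Lamc1, at 114 FPKM, exceeded the beta chain genes Lamb2 (18.9 ± 2.68) and Lamb1 (7.65 ± 0.70) and the alpha chain gene Lama5 (18.4 ± 6.13). The type IV chain genes stood close to each other, with 26.2 ± 2.56 FPKM of Col4a1 and 25.9 ± 3.20 of Col4a2, which lie head to head on opposite strands of chromosome 8 with RefSeq starts 21 bases apart on GRCm38.p6. The nidogens, which link laminin to type IV collagen, had 9 (Nid1) and 1 (Nid2) counts over the controls, and Col4a5, a chain of specialised basement membranes, had 8.

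The members together took between 0.929% and 0.957% of all counts in the 5 libraries other than control replicate 2, and 0.735% in that library. The basement membrane genes took 0.321% and 0.322% in control replicates 1 and 3, 0.197% in control replicate 2 and 0.330% to 0.342% in the treated libraries. The matricellular genes took 0.278% to 0.303% in the controls against 0.283% to 0.293% with RBC, so that the ranges of the groups overlapped. The range of the treated libraries overlapped that of the controls for the members together.

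**Figure D2:**
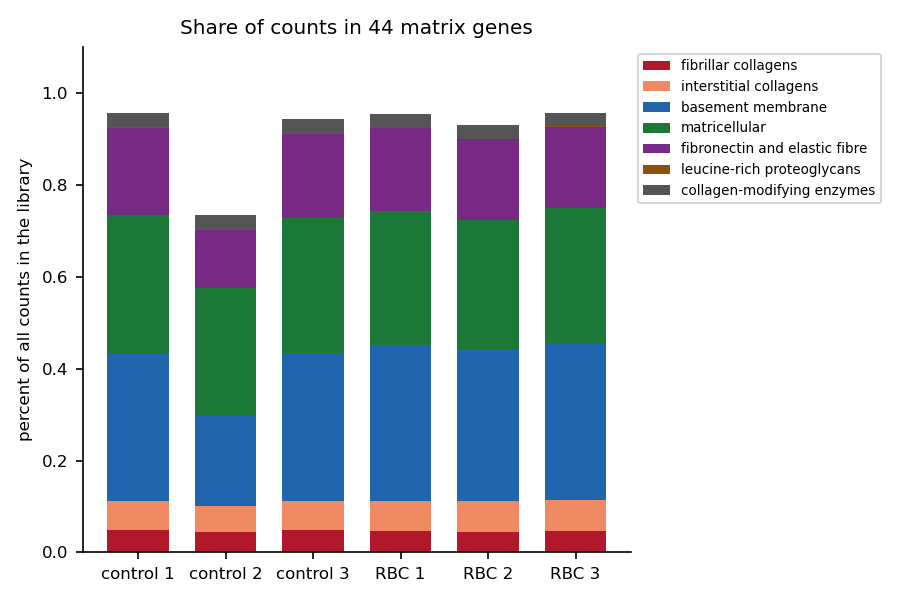
Percent of all counts in each library that fell on the 44 members, stacked by role. The 3 treated bars and those of control replicates 1 and 3 stand between 0.929 and 0.957, and the bar of control replicate 2 at 0.735.

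With 6 libraries a single matrix gene passed the test. Prelp, a leucine-rich repeat proteoglycan that anchors basement membranes to the underlying collagen, had 20.6, 18.7 and 22.3 CPM (counts scaled to equal library totals) in control replicates 1 to 3 and 13.6, 14.2 and 14.8 CPM in the treated libraries. All treated libraries lay below all controls. Prelp fell by 0.53 ± 0.09 (SE) on the log2 scale, with an adjusted p of 0.020 in edgeR's quasi-likelihood test. Of the 34 tested members, 1 was called lower and none higher. Over the 11208 tested genes, 1.46% were called in either direction, 1.16% higher and 0.303% lower. At an unadjusted p under 0.05 there were 9 members and 1120 genes in all. The median log2 fold change was -0.02 over the members and -0.0027 over all genes. The Prelp call was lost when control replicate 1 or 3 or a treated library was left out (adjusted p up to 0.15, log2 fold change from -0.59 to -0.46 with each library left out). DESeq2 called Prelp lower and Col8a1 higher (adjusted p = 0.00088 and 0.040).

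Although 1 member was called, 14 of 34 (41.2%) had groups whose CPM did not overlap, 8 higher and 6 lower. Over all tested genes this was so for 19.6%, with 10.4% higher and 9.19% lower. Among genes of at least 100 CPM these shares were 40.0% of 20 members and 23.1% of 2665 genes. Control replicate 2 was the lowest of the controls in 24 of the 34 tested members (70.6%), as in 42.7% of all tested genes.

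This spread went with the length of the transcripts. Gene models of the tested members had a median of 5847 bases, against 3585 for all tested genes. Hspg2, at 14402 bases the longest member, was in control replicate 2 at 0.463 of the mean of the other controls, Lama5 (12052 bases) at 0.516, Fn1 (8396 bases) at 0.583 and Col6a3 (10841 bases) at 0.614. Ccn1 (2028 bases) and Ccn2 (2403 bases) were at 1.12 and 1.11. Not every long gene was low in that library, and Plod2 with 9445 bases was at 0.982 and Col12a1 with 12235 bases at 0.901. Across genes, which are not independent replicates and share these 3 libraries, Spearman's rho between length and this ratio was -0.68 over the 34 members and -0.66 over 11193 tested genes. Between control replicates 1 and 3 it was 0.11. Genes of 2000 to 3000 bases had a median ratio of 1.07 and those above 8000 bases of 0.796. In each length class that held members, the members' median lay under that of all tested genes. On the log2 scale it was 0.027 against 0.098 at 2000 to 3000 bases, and -0.59 against -0.33 above 8000 bases. What gave this library its trend was not tested.

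**Figure D3:**
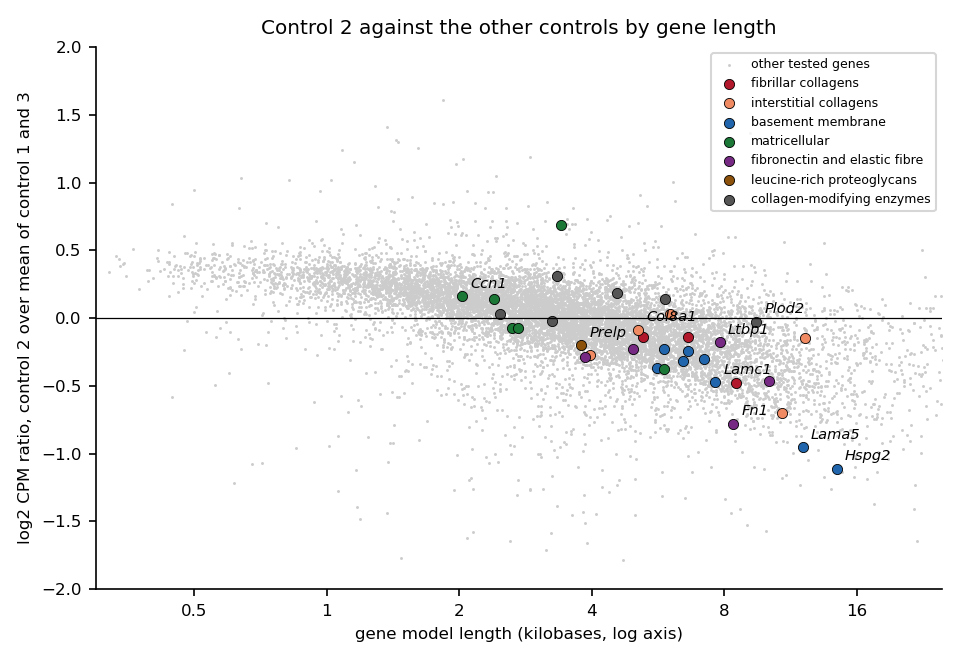
Log2 ratio of CPM in control replicate 2 to the mean of control replicates 1 and 3 against gene model length on a log axis; grey points are tested genes inside the drawn range, coloured points the 34 tested members by role. The members slope downward like all genes, with medians under those of all genes of like length, and Hspg2, Lama5 and Fn1 lie at the lower edge.

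Leaving out control replicate 2 gave a different count. With the 5 other libraries 15 of the 34 members (44.1%) were called, 4 higher and 11 lower, against 7.96% of 11297 tested genes, of which 4.19% were higher and 3.77% lower. Among genes of at least 100 CPM the shares were 60.0% of 20 members and 12.6% of all. The changes were small: apart from Prelp and Lox the called members lay between 0.82 and 1.15 of the control level. DESeq2 called 8 of the 15 and a fit with the replicate number as a block 10. With each of the other 5 libraries also left out in turn, between 9 and 16 members were called, and 6 were called every time: Prelp, Hspg2, Col8a1, Col4a1, Lamb1 and Ccn1. In the fits that also leave out control replicate 1 or 3 a single control remains, so their spread comes from the treated libraries alone and the lone control is assumed to vary like them. These 6 were also called in each of the 9 other fits of the same 5 libraries. Each role below is therefore given with and without control replicate 2.

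**Figure D4:**
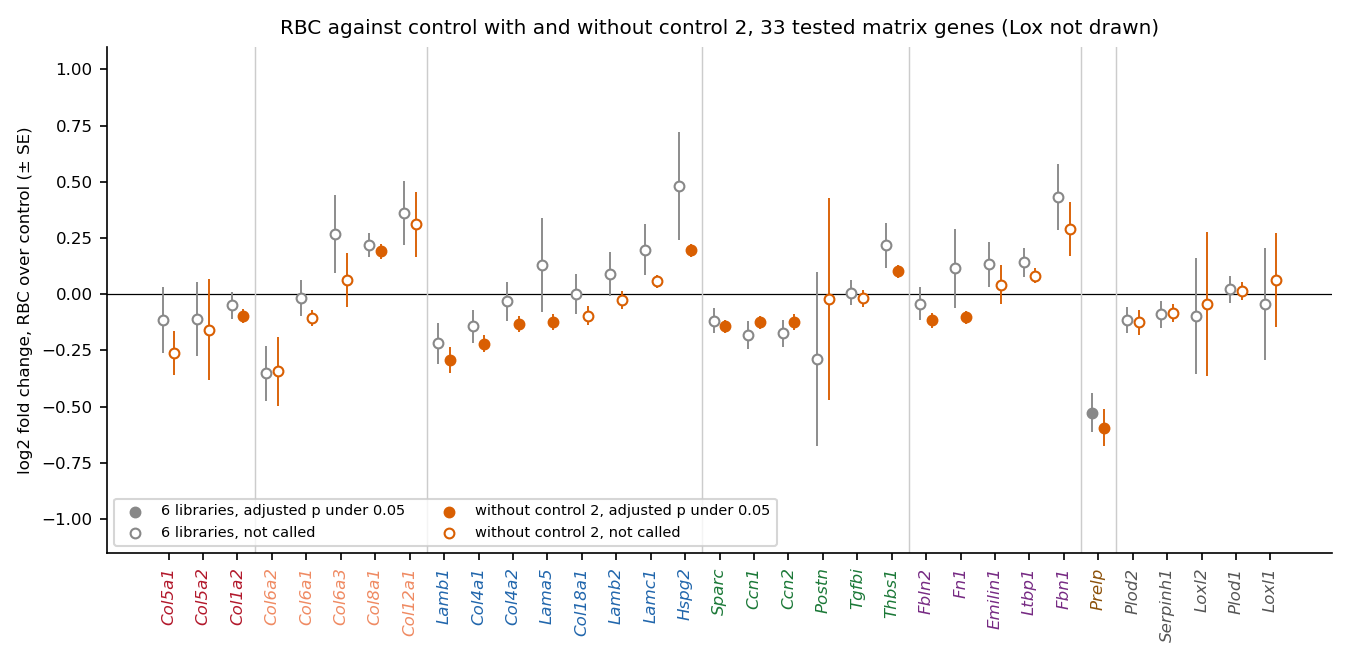
Log2 fold change of RBC over control with its SE for 33 tested members, grouped by role; grey is the fit of 6 libraries, orange the fit without control replicate 2, and filled points passed an adjusted p of 0.05. Lox, with a larger change, is not drawn. Prelp is the only filled grey point, and the SE of Hspg2, Lama5 and Fn1 is several times shorter in orange.

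Among the fibrillar collagens none of 3 tested genes was called with 6 libraries, and 1 was called lower without control replicate 2. Col1a2 had 477, 435 and 481 CPM in the controls against 452, 437 and 456 CPM with RBC. The treated values lay inside the range of the controls (log2 fold change -0.05 ± 0.06 SE, adjusted p = 0.77). With control replicate 2 left out they lay under both remaining controls, with a log2 fold change of -0.10 ± 0.03 and an adjusted p of 0.043, a call that was lost in DESeq2 (adjusted p = 0.086) and in 4 of the 5 fits with a further library left out. Col5a1 and Col5a2, whose chains set the diameter of type I fibrils, had 12.9 ± 2.68 and 2.21 ± 0.18 CPM in the controls against 11.9 ± 0.95 and 2.04 ± 0.22 CPM with RBC, with no call in either fit. Col3a1 had 17 counts over the controls and 11 over the treated libraries.

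The group named interstitial collagens here takes the 5 member collagens outside the fibrillar and basement membrane groups, all tested. None was called with 6 libraries, and 1, Col8a1, was called higher without control replicate 2. Col8a1, a short-chain network collagen of vessel walls and of the corneal endothelial membrane, had 386, 364 and 386 CPM in the controls against 429, 440 and 453 CPM with RBC. The groups did not overlap, and the difference of 0.22 ± 0.05 on the log2 scale missed the threshold with 6 libraries (adjusted p = 0.12). In the 5 libraries without control replicate 2, Col8a1 rose 1.14-fold (adjusted p = 8.8e-06), and with an offset for each library's trend with gene length it was called with all 6 libraries (adjusted p = 0.0195). Col6a1, Col6a2, Col6a3 and Col12a1 were not called in either fit. Col6a2, a chain of beaded microfibrils, had 5.21, 5.44 and 5.44 CPM in the controls against 4.78, 3.87 and 3.94 CPM with RBC (log2 fold change -0.35 ± 0.12, adjusted p = 0.36). Col12a1, which decorates fibril surfaces, had 4.34, 4.73 and 6.17 CPM against 6.83, 6.49 and 6.27 CPM (0.36 ± 0.14, adjusted p = 0.43). In these low genes the groups lay apart, Col6a2 lower and Col12a1 higher with RBC. The FPKM ratio of Col6a3 to Col6a1 was 0.0118 ± 0.0019 in the controls against 0.0145 ± 0.00074 with RBC (SD, n = 3; exact two-sided permutation p = 0.10, adjusted p = 0.15). It was 0.0126, 0.00959 and 0.0132 in control replicates 1 to 3, lowest in control replicate 2, against 0.0138, 0.0153 and 0.0145 with RBC.

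In the basement membrane none of 8 tested genes was called with 6 libraries. With control replicate 2 left out the perlecan gene was higher, and both type IV collagen genes and the laminin chain genes Lamb1 and Lama5 were lower. Hspg2, which encodes the perlecan core protein, had 1359, 628 and 1354 CPM in control replicates 1 to 3, against 1556, 1517 and 1588 CPM in the treated libraries. The treated values lay above all controls, and control replicate 2 widened the spread of the controls (1114 ± 420 CPM, SD, n = 3). The log2 fold change was 0.48 ± 0.24 with 6 libraries (adjusted p = 0.56) and 0.20 ± 0.03 without control replicate 2 (adjusted p = 4.3e-07), so both the estimate and its error became smaller. With the length offset and all 6 libraries it was 0.41 ± 0.15 and was not called (adjusted p = 0.24).

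Col4a1 and Col4a2 encode the chains that form the common type IV collagen. Col4a1 had 177, 155 and 188 CPM in the controls against 157, 154 and 159 CPM with RBC, and Col4a2 had 176, 143 and 181 CPM and 163, 160 and 166 CPM. In both genes the treated values lay under control replicates 1 and 3, and for Col4a1 near control replicate 2. With the latter left out they fell by 0.22 ± 0.04 and 0.13 ± 0.04 on the log2 scale (adjusted p = 6.2e-06 and 0.0091). The Col4a2 call was lost in DESeq2 (adjusted p = 0.060) and without control replicate 3 or treated replicate 2. With the length offset and all 6 libraries Col4a1 was called lower (adjusted p = 0.036) and Col4a2 was not (adjusted p = 0.48). The ratio of Col4a1 to Col4a2 FPKM within a library was 0.981, 1.05 and 1.01 in the controls against 0.940, 0.938 and 0.936 with RBC. The groups did not overlap, and the exact two-sided permutation p was 0.10, the smallest that 3 against 3 libraries can give (0.15 adjusted over 9 chain ratios, which were chosen after the values had been seen).

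The laminin chain genes differed among themselves. Lamb1, a beta chain gene, had 46.1, 40.1 and 48.0 CPM in the controls against 34.8, 38.6 and 41.8 CPM with RBC, and fell by 0.29 ± 0.06 without control replicate 2 (adjusted p = 0.00026). Lama5, whose chain is part of the laminins of mature endothelium, had 268, 136 and 260 CPM against 249, 235 and 244 CPM. Its log2 fold change was 0.13 ± 0.21 with 6 libraries and -0.12 ± 0.03 without control replicate 2 (adjusted p = 0.012), so that its sign turned, and that call was lost in DESeq2 (adjusted p = 0.056) and without control replicate 1 or treated replicate 2. Lamc1 had 960, 693 and 961 CPM in the controls against 991 to 1007 CPM with RBC and was not called in either fit (adjusted p = 0.60 and 0.27). Lamb2 and Col18a1, the source of endostatin, were not called either, with log2 fold changes of 0.09 ± 0.10 and 0.00 ± 0.09 with 6 libraries. The ratio of Lamb1 to Lamb2 was 0.408 ± 0.026 in the controls against 0.328 ± 0.038 with RBC (SD, n = 3), without overlap (exact two-sided permutation p = 0.10, adjusted p = 0.15). Most of the chain ratios lay apart in this way with the same p, among them also Col6a2 to Col6a1, Lamb1 to Lamc1 and Lamb2 to Lamc1. The separation is thus not particular to Lamb1 and Lamb2.

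Of the 6 tested matricellular genes none was called with 6 libraries, and without control replicate 2 Sparc, Ccn1 and Ccn2 were lower and Thbs1 was higher. Ccn1, an integrin ligand that cells induce on stretch and growth factor signals, had 727, 813 and 728 CPM in the controls against 679, 658 and 664 CPM with RBC. Ccn2, connective tissue growth factor, had 162, 178 and 159 CPM and 151, 145 and 146 CPM. In both genes the treated libraries lay under all controls, with log2 fold changes of -0.18 ± 0.06 and -0.17 ± 0.06 (adjusted p = 0.35 and 0.36). Unlike the long genes, these short genes were highest in control replicate 2, and without it the log2 fold changes were -0.13 ± 0.03 and -0.12 ± 0.04 (adjusted p = 0.0024 and 0.019). The Ccn2 call was lost in DESeq2 (adjusted p = 0.12) and in 4 of 5 fits with a further library left out. The FPKM ratio of Ccn2 to Ccn1 was 0.186 ± 0.0023 in the controls and 0.187 ± 0.0015 with RBC (SD, n = 3; exact two-sided permutation p = 0.60).

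Sparc, a collagen-binding glycoprotein, had 884, 824 and 851 CPM in the controls against 794, 768 and 795 CPM with RBC, again without overlap. It fell by 0.14 ± 0.03 on the log2 scale without control replicate 2 (adjusted p = 0.00040), a call lost when control replicate 1 was also left out (adjusted p = 0.053). Thbs1, thrombospondin 1, an activator of latent TGF-beta and inhibitor of vessel growth, had 1098, 818 and 1029 CPM in the controls against 1148, 1107 and 1167 CPM with RBC. Its log2 fold change was 0.22 ± 0.10 with 6 libraries (adjusted p = 0.52) and 0.10 ± 0.03 without control replicate 2 (adjusted p = 0.022). DESeq2 did not call it (adjusted p = 0.057), nor did the fits without control replicate 3 or treated replicate 3. Platelets store both proteins, and the 5 listed of 6 platelet markers summed to 1.51 to 2.12 CPM in the controls against 1.94 to 2.56 CPM with RBC, with Pf4 at 0 and 1 counts. Ppbp, from the same list, had 29 and 62 counts without overlap of the groups, and was called higher without control replicate 2 (adjusted p = 0.0050). Their part in the values of Thbs1 and Sparc was not tested. Tgfbi, a collagen-binding integrin ligand, had 154 ± 4.80 and 154 ± 6.38 CPM and was not called. Periostin (Postn) had 35 and 29 counts over the controls and the treated libraries, tenascin C (Tnc) 7 and 11, and Thbs2 6 and 0.

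**Figure D5:**
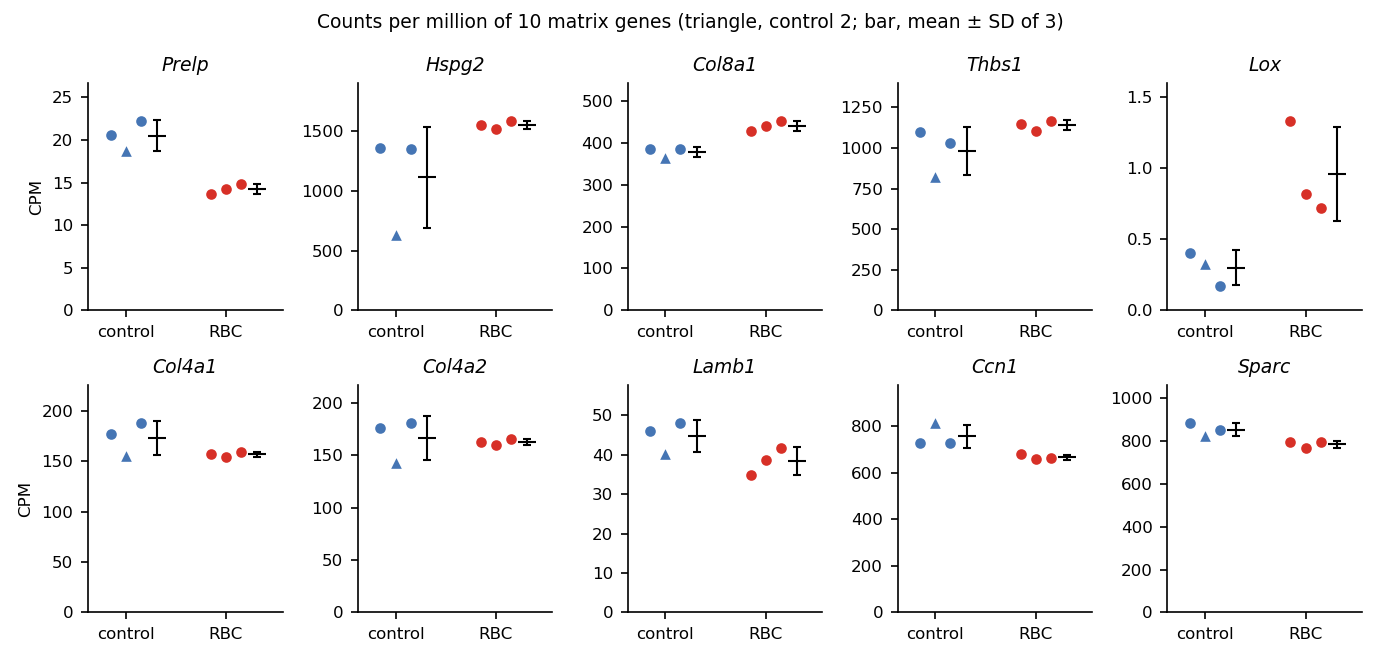
CPM of 10 members in each library, with axes from 0; blue is control, red RBC, the triangle control replicate 2, and the bar the mean ± SD of 3 libraries. Prelp, Ccn1 and Sparc lie lower and Hspg2, Col8a1, Thbs1 and Lox higher in all treated libraries, while the groups of Col4a1, Col4a2 and Lamb1 overlap.

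Fibronectin and the elastic fibre genes gave no call with 6 libraries among 5 tested, and 2 lower calls without control replicate 2. Fn1, the provisional matrix protein on which other fibres assemble, had 1249, 712 and 1195 CPM in the controls against 1146, 1126 and 1143 CPM with RBC. The sign of its log2 fold change turned with control replicate 2, from 0.11 ± 0.18 with 6 libraries (adjusted p = 0.82) to -0.10 ± 0.03 without it (adjusted p = 0.014), and the call was lost with control replicate 1 or treated replicate 2 or 3 also left out. Fbln2, a binding partner of elastin and perlecan, had 303 ± 26.9 CPM in the controls against 294 ± 11.2 CPM with RBC, and fell by 0.12 ± 0.03 without control replicate 2 (adjusted p = 0.018). DESeq2 did not call it (adjusted p = 0.077), nor did 4 of the 5 fits with a further library left out. Fbn1, the fibrillin of microfibrils and anchoring filaments, had 6.89, 5.44 and 8.13 CPM in the controls against 9.50, 8.24 and 9.83 CPM with RBC. Fbn1 values did not overlap but were not called in either fit (adjusted p = 0.34 and 0.15). Ltbp1, which tethers latent TGF-beta to the matrix, had 299, 261 and 291 CPM against 314, 314 and 310 CPM, again apart and again without a call (adjusted p = 0.50 and 0.11). Emilin1 had 14.3 ± 1.69 and 15.6 ± 0.62 CPM, while Efemp2 and Ltbp3 had 8 and 24 counts over the controls.

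Of the 6 tested genes for collagen maturation none was called with 6 libraries, and 1, Lox, was called higher without control replicate 2. Plod1, a lysyl hydroxylase, had 120 ± 4.25 and 122 ± 5.01 CPM, and Serpinh1, the collagen chaperone HSP47, 135 ± 2.64 and 127 ± 7.35 CPM in controls and treated libraries. Plod2, a relative of Plod1 that acts on collagen telopeptides, had 46.5, 45.0 and 45.2 CPM against 40.6, 43.5 and 41.9 CPM, all lower with RBC (log2 fold change -0.12 ± 0.06, adjusted p = 0.55). None of these was called in either fit. Lox, the lysyl oxidase that cross-links collagen and elastin, was near the limit of detection, with 16 counts over the controls and 52 over the treated libraries. In CPM this was 0.405, 0.326 and 0.168 against 1.33, 0.818 and 0.722, without overlap (log2 fold change 1.66 ± 0.40, adjusted p = 0.12). Leaving out control replicate 2 gave 1.72 ± 0.47 with an adjusted p of 0.010, but DESeq2 gave an adjusted p of 0.16 on the same 5 libraries, and the call was lost without control replicate 3 or treated replicate 1. Lox did not pass a filter of 1 CPM in 3 libraries. Its relatives Loxl1 and Loxl2 had 3.27 ± 0.88 and 1.12 ± 0.25 CPM in the controls against 3.18 ± 0.87 and 1.05 ± 0.19 CPM with RBC.

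Markers of other cells that make or carry matrix RNA were measured beside these genes. The 10 listed of 11 fibroblast and mural markers summed to 8.38 to 12.1 CPM in the controls against 14.3 to 14.9 CPM with RBC. Pdgfra supplied most of it with 439 and 673 counts, neither of the 2 tested markers was called with 6 libraries (Pdgfra log2 fold change 0.59 ± 0.12, adjusted p = 0.054), and Lum and Dpt were at 0 in the controls. Dcn had 3 and 20 counts without overlap, and Pdgfra was called higher without control replicate 2 (log2 fold change 0.46 ± 0.10, adjusted p = 0.0013). The 9 listed leukocyte markers summed to 42.1 to 48.6 CPM and 49.6 to 54.4 CPM. Csf1r (means of 24.98 and 24.66 CPM) and Cd68 (20.56 and 21.20 CPM) made up most of both sums. Neither was called with 6 libraries (adjusted p = 0.96 and 0.83) or without control replicate 2. Of 6 tested leukocyte markers 4 were called higher with 6 libraries, among them Ptprc with 0 and 36 counts and Adgre1 with 0 and 48. The erythroid markers summed to 39.9 to 44.6 CPM and 579 to 666 CPM. Most of the control sum came from Bpgm (means of 39.0 and 42.1 CPM), which was not called (adjusted p = 0.61). Of 6 tested erythroid markers 5 were called higher with 6 libraries, among them Hbb-bs with means of 1.52 and 331 CPM. The epithelial and mesothelial list summed to 645 to 722 CPM and 602 to 623 CPM, with none of 3 tested called with 6 libraries. Krt8 and Krt18 of this list were called lower without control replicate 2 (adjusted p = 0.0016 and 2.3e-05). The lymphatic list summed to 400 to 503 CPM and 562 to 594 CPM, with Stab1 called higher with 6 libraries. Most of it came from Nrp2 (means of 272 and 361 CPM) and Nr2f2 (161 and 146 CPM). Without control replicate 2 Nrp2 was called higher and Nr2f2 lower (adjusted p = 3.8e-08 and 0.0041). The part of these cells in the differences of Lox and of the other members was not tested.

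Beyond the members, wider lists of matrix genes were read the same way, against the 1.46% of all tested genes that were called. Of 6 tested further collagens and 10 tested elastic fibre and proteoglycan genes none was called with 6 libraries. Col27a1 and Col7a1 had the smallest p among these collagens (log2 fold changes 0.84 ± 0.35 and 0.15 ± 0.10), and Vcan and Fmod among these proteoglycans (0.44 ± 0.12 and -0.40 ± 0.12). With control replicate 2 left out Col7a1 and Vcan were called higher (adjusted p = 0.024 and 4.1e-06), and Spon2, chosen after its values were seen as the only other call of these lists, lower (log2 fold change -0.51, adjusted p = 0.043). Of 9 further basement membrane genes 1 was called higher, Smoc2, a secreted calcium-binding protein, which rose by 1.45 ± 0.16 (SE) on the log2 scale, from a mean of 1.29 ± 0.12 to 3.54 ± 0.28 CPM (SD; adjusted p = 0.0029). Its call held with each library left out.

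Among 21 tested genes of procollagen processing 1 was higher and 1 lower. Tgm2, the transglutaminase that cross-links fibronectin and other matrix proteins, rose from 11.4 ± 1.68 to 19.9 ± 0.89 CPM (log2 fold change 0.82 ± 0.11, adjusted p = 0.0068). P4ha1, which hydroxylates collagen proline, fell from 157 ± 7.07 to 128 ± 2.13 CPM (log2 fold change -0.29 ± 0.06, adjusted p = 0.042). The Tgm2 call was lost without treated replicate 2, and the P4ha1 call when any library but control replicate 2 was left out. Of 6 further matricellular genes 2 were lower. Ccn5, a CCN protein without the C-terminal domain of its relatives, fell from 8.42 ± 0.86 to 5.19 ± 0.44 CPM (adjusted p = 0.024), and Spp1, osteopontin, from 99.8 ± 9.13 to 76.1 ± 2.64 CPM (adjusted p = 0.043). The Spp1 call was likewise lost, and the Ccn5 call was lost when control replicate 3 or a treated library was left out.

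Of 19 tested integrins, syndecans, discoidin receptors and related genes 1 was called higher with 6 libraries, Cd47, a receptor of thrombospondin 1 and a ligand of SIRP-alpha. Cd47 rose from 86.5 ± 3.09 to 116 ± 3.53 CPM (log2 fold change 0.43 ± 0.06, adjusted p = 0.0066), without any overlap of the groups. This call was lost when treated replicate 2 or 3 was left out. The part of RNA from red cells and leukocytes in the values of Cd47 and of the other wider lists was not tested. In the 5 libraries without control replicate 2, 3 of 19 tested receptors were higher and 1 was lower. In that fit 7.96% of all tested genes were called, 4.19% higher and 3.77% lower. Of the other wider lists, 2 of 10 tested further basement membrane genes were then higher. Among 21 tested procollagen processing genes 3 were higher and 4 lower, and among 6 tested further matricellular genes 3 were lower.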

How the data were processed

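The 6 libraries (3 control, 3 RBC) have their group and replicate number from the titles. Per the labels' protocols, TRIzol RNA went into a stranded mRNA kit. The submitters' processing notes name the build GRCm39. The aligner, counter, strand setting and annotation were not given in the sources used here. The authors deposited a table of raw counts per gene symbol and a table of FPKM, in which the counts are divided by gene length and by the library's sum of listed counts (largest relative departure 1.4e-08). Both tables hold the same reads, and gene model length was computed from their ratio. A value of n = 3 is the libraries of a group.

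The main test of the counts was that of edgeR 4.0.16 (R 4.3.3): filterByExpr (minimum count 10, total 15; 11208 genes kept), TMM scaling, glmQLFit and glmQLFTest, two-sided, Benjamini-Hochberg adjustment over all genes tested, and a call at an adjusted p under 0.05. Alternatives used DESeq2 1.42.0, limma 3.58.1, other scalings and filters, a loess offset on gene length (span 0.5), the replicate block, each library left out and log2(FPKM + 1) for genes of at least 1 FPKM. Only the main test with 6 libraries was tried on simulated data. It called 34.3% of 1.25-fold, 82.1% of 1.5-fold and 95.5% of 2-fold changes in the right direction, and 7.24% of its calls were false. The simulated libraries shared 1 mean per gene, so none had the length trend of control replicate 2. Changes were placed only in genes above a minimum mean count. These rates may therefore not hold for the measured libraries. The fit without control replicate 2 and the alternatives were not tried in this way. The members, the wider lists and the marker lists were chosen with earlier results of these data known, and no p was adjusted over a list alone. Members were described in full where called with 6 libraries or without control replicate 2 or where among the 3 highest of a role. From each wider list the called genes were named, or the 2 with the smallest p. RefSeq windows were matched by symbol. Pairing was judged from the correlation of same-numbered libraries' deviations from their group means. The background at 100 CPM, the alternatives to the fit without control replicate 2 and to the length trend, and the chain ratios were added after the values had been seen.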

Additional observations from a re-analysis of the deposited data

How the results depend on the processing

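Prelp was called lower in each of the 9 alternatives on the counts of all 6 libraries and without control replicate 2, and was lost when any other single library was left out. The count of called members, 1 with 6 libraries, was 2 in DESeq2, 8 in voom with library quality weights, 3 with the length offset and 0 to 15 with a library left out. By role these were, in the same order, 1, 1 and 1 gene of the interstitial collagen group, each time Col8a1, and 0, 3 and 1 basement membrane genes. There were 0, 2 and 0 matricellular genes and 0, 1 and 0 collagen-modifying enzymes. With a library left out the ranges were 0 to 5 for the basement membrane, 0 to 4 for matricellular genes, 0 to 2 for fibronectin and elastic fibre genes and 0 to 1 for each other role, the upper end coming without control replicate 2. Without control replicate 2, 15 members became 8 in DESeq2 and 9 to 16 with a further library left out. On FPKM 1 member, Prelp, was called, 0 without a filter and 6 without control replicate 2. Over all genes the 164 calls (130 higher, 34 lower) became 651 (362 and 289) with quality weights, 340 (219 and 121) with the length offset and 62 to 899 with a library left out. The causes were not tested. Spearman's rho with length was -0.69 and -0.59 with control replicate 1 or 3 left out.

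The sign turned in 29 of 508 values, over 11 members that were not called with 6 libraries, with sizes up to 0.126. Quality weights gave log2 fold changes of -0.080 (Lama5), -0.064 (Fn1), -0.088 (Col18a1), -0.0089 (Lamb2), -0.013 (Tgfbi) and 0.0062 (Loxl2). Col18a1 had -0.00044 without scaling, -0.00042 without a filter and -0.060 with the length offset. With a library left out the ranges were -0.26 to 0.040 for Col5a1, -0.11 to 0.043 for Col6a1, -0.13 to 0.032 for Col4a2, -0.095 to 0.081 for Col18a1, -0.12 to 0.29 for Lama5, -0.024 to 0.15 for Lamb2, -0.018 to 0.042 for Tgfbi, -0.10 to 0.25 for Fn1, -0.27 to 0.13 for Loxl1, -0.26 to 0.046 for Loxl2 and -0.010 to 0.052 for Plod1.

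Same-numbered libraries did not deviate together (correlations of deviations -0.014, 0.045 and 0.063), so the numbers were not taken to pair them. With the replicate block 126 genes were called, 123 of them shared, and 1 member was called. Of the calls over all genes 79.3% were higher, against 89.7% with the block, 64.4% with the length offset and 55.6% with quality weights. Among the 15 members called without control replicate 2 the block called 10.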
